A study of Mus musculus with 28 samples.

Results

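The 36 genes described here make cholesterol and fatty acids, or set how strongly a cell makes them. They were chosen by symbol, as the genes of these pathways among the 45706 genes of both expression tables, and each of the 36 symbols matched a gene. They fall into 5 lists. These are the mevalonate steps (7 genes), the steps from squalene to cholesterol (12), the SREBP pathway with a sterol carrier (6), fatty acid synthesis (6), and the liver X receptors with their targets (5).

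The cells were mIMCD-3, an epithelial line derived from kidney, from inner medullary collecting duct cells of an SV40-transgenic mouse. All groups were wild type, with no edited gene and no treatment, and differed, by their labels, in clonal history. Polyclonal cells were the parental population, WT5 was grown from 1 sorted cell of it, and subclones 1 to 5 were each grown from 1 cell sorted from WT5. WT5 and every subclone were thus a single clone each. Each of the 7 groups had 4 libraries, made 4 days after confluency from cells kept in 10% serum, so all groups were supplied with lipids from outside. The 4 libraries of a line are described as biological replicates in one place and as technical ones in another, so p-values measure the spread between these libraries, which may be technical.

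Cholesterol is built from acetyl-CoA by way of mevalonate, isoprenoids and squalene. The transcription factor SREBP-2 (gene Srebf2) drives most genes of that route, while SREBP-1 (Srebf1) drives those of fatty acid synthesis more strongly. Both are made as precursors in the membrane of the endoplasmic reticulum, where the escort protein SCAP carries them to the Golgi when sterol is low and the proteins INSIG-1 and INSIG-2 hold them back when it is high. Liver X receptors (Nr1h2, Nr1h3) act in the opposite situation: bound by oxysterols, they turn on genes of sterol export.

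What these genes share was also read from their promoters, which the choice of genes did not use. RefSeq sequences on GRCm38.p6, from 250 bases before to 50 after the annotated start, were at hand for 29 of the 36 genes. The NF-Y box CCAAT, a binding motif of a factor that works beside SREBP, was found on either strand in 22 of these 29 genes (75.9%), against 41.1% of 27025 genes with such a sequence. Those 27025 genes were not limited to genes expressed in these cells, as most of the 29 were. The sterol regulatory element, searched on both strands as TCACNCCAC, was found in Hmgcs1 alone, against 1.44% of all genes. The SREBP E-box TCACGTGA matched none of the 29, against 1.12% of all genes, and the liver X receptor element, 2 copies of AGGTCA with 4 bases of any kind between them, none, against 0.0148%. A match is a description of letters, and a missing match says only that these letters were not in this window. The 250 bases before the start are given for 4 genes: Hmgcs1, the only one with the sterol regulatory element, Fasn and Srebf2, which differed most between WT5 and polyclonal cells in opposite directions, and Insig1, which separated the subclones. They lie at chr13:119690101-119690350 (plus strand), chr11:120824548-120824797 (minus strand), chr15:82147019-82147268 (plus strand) and chr5:28071162-28071411 (plus strand). Capitals mark CCAAT or its reverse complement ATTGG and, in Hmgcs1, the element TCACCCCAC. The stretch CCAATTGG in Fasn holds 2 overlapping matches.
Hmgcs1: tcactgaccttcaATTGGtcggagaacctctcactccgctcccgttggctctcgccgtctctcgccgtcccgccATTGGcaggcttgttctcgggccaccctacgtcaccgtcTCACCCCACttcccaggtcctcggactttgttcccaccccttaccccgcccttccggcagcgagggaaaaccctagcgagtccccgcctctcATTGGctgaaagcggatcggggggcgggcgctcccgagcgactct
Fasn: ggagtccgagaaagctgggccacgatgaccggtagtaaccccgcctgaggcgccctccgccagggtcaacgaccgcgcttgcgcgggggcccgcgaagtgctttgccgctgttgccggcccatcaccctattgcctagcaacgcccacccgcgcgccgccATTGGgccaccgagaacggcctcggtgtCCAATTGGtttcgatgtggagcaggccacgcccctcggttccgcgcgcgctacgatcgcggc
Srebf2: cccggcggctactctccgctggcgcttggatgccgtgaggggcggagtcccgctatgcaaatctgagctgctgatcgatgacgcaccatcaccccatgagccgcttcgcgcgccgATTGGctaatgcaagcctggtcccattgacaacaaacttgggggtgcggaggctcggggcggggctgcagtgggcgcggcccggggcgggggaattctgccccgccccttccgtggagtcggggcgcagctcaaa
Insig1: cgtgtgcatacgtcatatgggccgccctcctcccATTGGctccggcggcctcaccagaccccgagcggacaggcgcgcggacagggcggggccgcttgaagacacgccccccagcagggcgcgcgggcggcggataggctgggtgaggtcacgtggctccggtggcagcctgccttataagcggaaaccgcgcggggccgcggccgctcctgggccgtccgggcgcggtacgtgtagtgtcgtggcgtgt
Fasn held 3 NF-Y boxes and Srebf2 1, as did Insig1, and Hmgcs1 held 3. Acaca, Acat2, Elovl6, Scap, Nr1h2, Nr1h3 and Abca1 held none.

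Expression was deposited by the authors as TPM, a level per transcript length that adds to the same total in every library, so levels may be compared between genes while the read depth is unknown. Polyclonal cells were sequenced with shorter single-end reads and WT5 with longer paired-end reads at another time, so cell line and sequencing batch cannot be told apart. WT5 and polyclonal libraries stand in one table and the subclones in another, so whatever all 5 subclones have in common relative to WT5 cannot be told apart from a difference between tables. In bulk RNA, fewer cells with a high level and less RNA per cell cannot be told apart. The 6 epithelial markers were present in all 28 libraries, with a summed level of 1954 to 2271 TPM in polyclonal cells, 3389 to 3456 in WT5 and 2063 to 2608 in the subclones. Of these 6, Epcam, Krt8, Krt18, Krt19 and Cldn7 had a higher mean in WT5 than in polyclonal cells and Cdh1 a lower one (97.6 against 145 TPM). The 7 collecting duct markers were mixed. Cdh16 (30.9 TPM in polyclonal cells and 89.2 in WT5), Tfcp2l1 (8.04 and 10.2) and Aqp3 (0.21 and 0.693) had higher means in WT5, while Hoxb7 (68.0 and 55.3), Gata3 (4.08 and 0.04) and Scnn1a (1.1 and 0.57) had lower ones. Aqp2, the water channel of principal cells, was at 0 in all 28 libraries. Hepatocyte, adipocyte and endothelial markers were below 1 TPM in every library. Of the fibroblast markers, Col1a1 reached 2.06 TPM in WT5 replicate 4 and Dcn 1.01 TPM in polyclonal replicate 3. Of the leukocyte markers, Cd68 had 1.45 to 4.52 TPM over the 28 libraries. The other fibroblast and leukocyte markers stayed below 1 TPM.

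The pathway was expressed throughout, with the exception of the sterol exporters. Fdps, which makes farnesyl diphosphate, and Scd2, a desaturase that makes monounsaturated fatty acids, had the highest levels, with group means between 267 and 375 TPM for Fdps and between 212 and 299 TPM for Scd2. Scd1, the sister enzyme of Scd2, was far lower at 1.98 to 21.5 TPM. Abca1 and Abcg1, which export cholesterol and phospholipid and are standard liver X receptor targets, stayed at or below 0.2 TPM in all 28 libraries, and Abcg1 was above 0 in 1 of them. The receptor Nr1h3 reached at most 0.62 TPM, whereas its relative Nr1h2 had means of 50.5 to 84.3 TPM. These 3 genes had a TPM of 0 in some library and were left out of the comparisons with WT5, which leaves 33 of the 36 genes tested there. The 36 genes together took 2060 ± 69.2 TPM (SD, n = 4) in polyclonal cells, 2285 ± 40.7 in WT5 and, as group means, 1828 to 2202 in the subclones.

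The first comparison asks what distinguishes a clone from the population it came from. In WT5 the regulators Srebf2 and Insig2 rose and part of fatty acid synthesis fell: Srebf2 was 2.83-fold, Insig2 2.06-fold and Acaca 2.06-fold as high as in polyclonal cells, while Fasn stood at 0.353 and Scd1 at 0.394 of the polyclonal level. The genes of cholesterol synthesis itself moved less and in both directions. With log2(TPM) z-score transformed within each library, as the study did, 24 of 33 genes passed an adjusted p of 0.01 by limma, 13 higher and 11 lower in WT5, where 65.5% of the 13723 genes tested passed (34.5% higher and 30.9% lower). The share of these genes that passed, 24 of 33, is thus near that of all genes. On log2(TPM) without z-scores 18 passed as higher and 7 as lower, against 45.2% and 21.6% of all genes.

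Under the study's full rule, which also asks for a z-score difference above 1, 0 of 33 genes were called, against 5.43% of all genes. A z-score difference of 1 corresponds to an 8.56-fold difference in TPM, and the largest among these genes in any comparison with WT5 was 0.71 in size, so none could be called at any p, by limma or by the unequal-variance test. A second rule, an adjusted p below 0.01 and a log2 difference above 1 (2-fold), called 5 of 33 genes, against 25.5% of all genes tested. The calls were Srebf2, Insig2 and Acaca as higher (17% of all genes) and Fasn and Scd1 as lower (8.55%). The median log2 difference of the 33 genes was 0.25 and that of all genes tested 0.24. Genes above 0 in every library compared thus tended to be higher in WT5. With the median of each library subtracted, 4 genes were called, against 23.2% of all genes: Srebf2 as higher, and Fasn, Scd1 and Elovl6 as lower. The split of 3 higher and 2 lower thus became 1 higher and 3 lower, as Insig2 and Acaca each dropped to a log2 difference of 0.75.

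**Figure D1:**
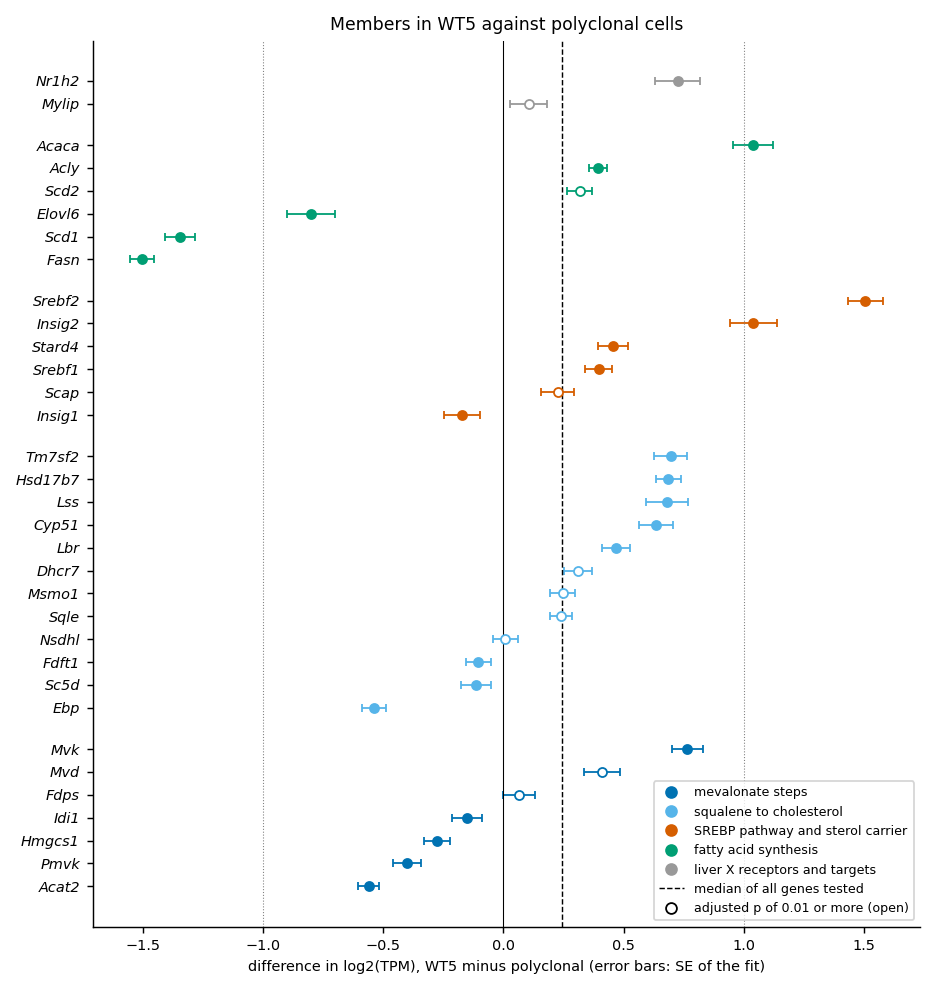
Difference in log2(TPM), WT5 minus polyclonal cells, for the 33 genes tested, by list (n = 4 libraries a group; error bars, SE of the limma fit; open symbols, adjusted p of 0.01 or more in the z-score fit). The dashed line is the median of all genes (0.24) and the dotted lines mark a log2 difference of 1 in size, which Srebf2, Insig2, Acaca, Fasn and Scd1 passed.

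Srebf2, which encodes SREBP-2, had 37.9, 40.65, 47.0 and 42.4 TPM in the 4 polyclonal libraries and 116, 117, 127 and 116 TPM in the WT5 libraries. The groups do not overlap, and every WT5 library was far above every polyclonal one. Its log2 difference was 1.51 ± 0.072 (SE; limma adjusted p = 7.86e-07), or 1.22 with the library medians subtracted. Insig2, one of the retention factors, had 44.2, 37.0, 44.8 and 41.95 TPM in polyclonal cells and 99.8, 88.9, 78.4 and 78.9 TPM in WT5. All WT5 libraries lay above all polyclonal ones, with a log2 difference of 1.04 ± 0.098 (SE; limma adjusted p = 3.05e-05). Acaca, which makes malonyl-CoA and commits carbon to fatty acids, had 8.23, 8.72, 9.49 and 9.46 TPM in polyclonal cells and 18.4, 16.75, 21.03 and 17.6 TPM in WT5. These groups also do not overlap, and the log2 difference was 1.04 ± 0.083 (SE; limma adjusted p = 1.22e-05). Both Insig2 and Acaca lay just above the 2-fold limit: Acaca was not called without polyclonal replicate 1 or without WT5 replicate 3, and Insig2 not without polyclonal replicate 2 or without WT5 replicate 1, each leaving 4 calls.

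Fasn, the multi-domain synthase that builds palmitate from malonyl-CoA, moved the other way. It had 142, 150.1, 143 and 153 TPM in the polyclonal libraries and 53.8, 53.7, 49.98 and 49.95 TPM in WT5. Every polyclonal library was far above every WT5 library, with a log2 difference of -1.50 ± 0.049 (SE; limma adjusted p = 1.16e-07). Scd1 had 20.9, 20.2, 22.8 and 22.25 TPM in polyclonal cells and 8.73, 8.22, 9.08 and 7.92 TPM in WT5, again without overlap and with a log2 difference of -1.34 ± 0.062 (SE; limma adjusted p = 6.84e-07). Elovl6, which extends palmitate to stearate, had 22.6, 19.3, 23.5 and 25.3 TPM in polyclonal cells and 12.4, 12.55, 14.8 and 12.1 TPM in WT5. Its groups were apart too, and its log2 difference was -0.80 ± 0.1 (SE; limma adjusted p = 0.00015), or -1.09 with the medians subtracted.

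Within fatty acid synthesis, consecutive steps of one route therefore went in opposite directions. Of the 6 genes, 2 passed the z-score test as higher (Acaca and Acly, which supplies cytosolic acetyl-CoA) and 3 as lower (Fasn, Scd1, Elovl6). Of all genes, 34.5% passed as higher and 30.9% as lower. All 6 genes had libraries that did not overlap between groups, as did 26 of the 33 genes and 72.3% of all genes. The ratio of Fasn to Acaca within a library was 16.4 ± 1.03 (SD, n = 4) in polyclonal cells and 2.83 ± 0.344 in WT5. Scd2 went from 212 ± 7.13 to 265 ± 14.5 TPM (limma z-score adjusted p = 0.0408), so that Scd1 made up 9.20% ± 0.195 of the sum of both desaturases in polyclonal cells and 3.11% ± 0.108 in WT5. Scd2 passed as higher without z-scores. Scd1 and Scd2 share some sequence, 4.56% of the 50-base stretches of the Scd1 transcript including those shared with other genes, so reads from the far more abundant Scd2 could have been counted for Scd1. Fasn shares none. A large part of the Acaca transcript in this annotation (31.3% of the stretches) is shared with 335 other genes, so its level is less certain.

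**Figure D2:**
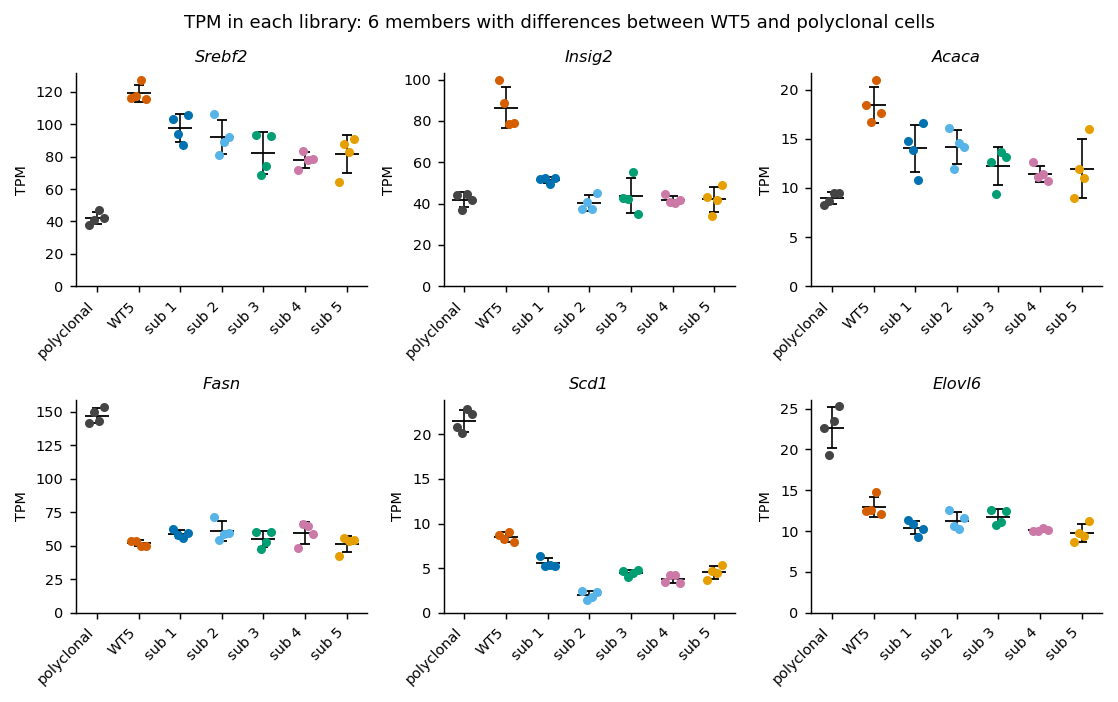
TPM of 6 genes in each of the 28 libraries, by group (points, libraries; horizontal line and bars, mean and SD of 4). Srebf2, Insig2 and Acaca were higher in WT5 than in polyclonal cells, Fasn, Scd1 and Elovl6 lower, and Insig2 had subclone means of 40.3 to 51.6 TPM, near the polyclonal mean of 42.0.

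Among the SREBP regulators and Stard4, a carrier that moves sterol between membranes, 4 of 6 genes passed as higher and 1 as lower. The shares of all genes were 34.5% and 30.9%. Beside Srebf2 and Insig2, Srebf1 rose from 79.2 ± 2.03 to 104 ± 6.81 TPM and Stard4 from 39.0 ± 2.95 to 53.3 ± 1.503 TPM (SD, n = 4). These 2 calls were narrow: Srebf1 lost its adjusted p below 0.01 without any of 7 single libraries (all but WT5 replicate 1) and Stard4 without polyclonal replicate 1 or WT5 replicate 1, 3 or 4, up to adjusted p of 0.0221 and 0.012 by limma. Insig1, the other retention factor and itself a standard SREBP target, passed as lower on the z-score scale, with 67.6, 75.1, 84.3 and 77.0 TPM in polyclonal cells and 72.65, 63.7, 67.3 and 65.7 TPM in WT5. These libraries overlap, and the log2 difference without z-scores was -0.17 ± 0.076 (SE; limma adjusted p = 0.0709), which did not pass. The paralogues thus differed: the ratio of Insig2 to Insig1 was 0.556 ± 0.0692 (SD, n = 4) in polyclonal cells and 1.28 ± 0.117 in WT5. The ratio of Srebf2 to Srebf1 went from 0.530 ± 0.0442 to 1.14 ± 0.0708. Scap, the escort, had 27.0 ± 1.62 and 31.6 ± 2.24 TPM and did not pass (limma adjusted p = 0.865).

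The mevalonate steps gave 1 gene higher and 4 lower out of 7, against 34.5% and 30.9% of all genes. Mvk, mevalonate kinase, rose from 20.9 ± 1.63 to 35.5 ± 1.15 TPM (SD, n = 4). The early enzyme Acat2, which joins acetyl-CoA units, fell from 84.0 ± 3.85 to 56.9 ± 0.805 TPM, Pmvk, the kinase that acts after Mvk, from 70.2 ± 4.86 to 53.0 ± 1.54, and Hmgcs1, the synthase that makes HMG-CoA, from 103 ± 5.30 to 85.3 ± 3.64. Neighbouring kinases of the route, Mvk and Pmvk, thus passed in opposite directions. Idi1, which isomerises isopentenyl diphosphate, passed as lower by z-score only, with 51.0 ± 2.73 and 45.9 ± 3.00 TPM. Fdps did not pass, with 356, 385, 379 and 318 TPM in polyclonal cells and 368, 361, 386 and 385 TPM in WT5, and neither did Mvd, the decarboxylase, with 25.5 ± 2.59 and 33.8 ± 0.998 TPM (limma z-score adjusted p = 0.0256). Mvd did pass as higher without z-scores.

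Several of these genes share sequence with other genes, whose summed levels also differed between polyclonal cells and WT5. Genes sharing a 50-base stretch with Idi1 summed to 11.8 TPM in polyclonal cells and 3.56 TPM in WT5, and those sharing one with Fdps to 27.1 and 0.927 TPM. Subclone values were near those of WT5, at 3.39 to 4.34 TPM for Idi1 and 0.82 to 1.19 TPM for Fdps. Polyclonal cells had the shorter single-end reads, so a change in these other genes cannot be told apart from the read layout. Acat2 shares 50.3% of its stretches with Acat3 and with Tcp1, and the counting is not stated to use strand. The part of such sharing genes in the levels of Idi1, Fdps and Acat2 was not tested. With genes added that share at least 10% of the stretches, the 2-fold rule called the same 5 genes as before. Idi1, Fdps and Acat2 are not among those 5, so the unchanged list says nothing about the genes that share sequence with them. Summing every gene that shares any stretch gave 3 calls (Abcg1, Fasn and Insig2) and turned the sign of the z-score difference of Scd1, Elovl6, Hmgcs1 and Tm7sf2, for which the added genes held far more TPM than the gene itself.

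From squalene to cholesterol, 5 of 12 genes passed as higher in WT5 and 3 as lower, against 34.5% and 30.9% of all genes. The higher ones were Lss, which folds squalene epoxide into lanosterol (20.4 ± 1.22 to 32.9 ± 3.82 TPM, SD, n = 4), Cyp51, the lanosterol demethylase (50.9 ± 4.97 to 78.8 ± 1.60), Tm7sf2 and Lbr, which both reduce the sterol 14-double bond (18.7 ± 1.38 to 30.3 ± 1.54, and 51.6 ± 2.66 to 71.5 ± 4.01, a call that Lbr lost without polyclonal replicate 1, 2 or 3 or WT5 replicate 2 or 3), and Hsd17b7, a sterol ketoreductase (7.02 ± 0.412 to 11.3 ± 0.288). Ebp, the sterol isomerase, fell from 52.5 ± 2.25 to 36.1 ± 1.64 TPM without overlap of the libraries. Sc5d and Fdft1 passed as lower by z-score only, with log2 differences of -0.11 and -0.10. Sqle, Msmo1, Dhcr7 and Nsdhl did not pass the z-score test, and their log2 differences lay between 0.01 and 0.31. Without z-scores, Sqle, Msmo1 and Dhcr7 passed as higher. No gene of this list or of the mevalonate steps reached a 2-fold difference, and the largest log2 difference was 0.76, that of Mvk. Of the liver X receptor list, Nr1h2 rose from 50.5 ± 2.06 to 84.0 ± 11.6 TPM, and Mylip, a ubiquitin ligase that liver X receptors induce, did not pass.

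Of 43 further genes of these pathways, 37 were tested, and 10 passed as higher and 13 as lower, together 62.2%, against 65.5% of all genes. None was called by the study's rule (5.43% of all genes), and the 2-fold rule called 5 (25.5% of all genes), all higher in WT5. With the library medians subtracted 2 were called, Mid1ip1 and Me1 (23.2% of all genes). The 3 largest by z-score were Mid1ip1, a protein that promotes polymerisation of acetyl-CoA carboxylase, the enzyme that Acaca encodes, with a log2 difference of 1.54 ± 0.068 (SE), Me1, which supplies NADPH for fatty acid synthesis, with 1.31 ± 0.052, and Pdss1, which makes the side chain of coenzyme Q, with 1.09 ± 0.094, a call lost with the medians subtracted. Mid1ip1 and Me1, like Acaca and Acly, rose where Fasn fell, but others fell with it. Of the 16 genes of lipogenesis among these 37, 5 passed as higher and 5 as lower, against 34.5% and 30.9% of all genes. Mid1ip1 had 48.0 to 54.8 TPM in polyclonal libraries and 142 to 165 TPM in WT5.

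The second comparison asks how far subclones departed from the clone they were sorted from. In all 5 subclones Scd1, Insig2, Tm7sf2 and Hsd17b7 were lower than in WT5 and Mylip was higher, each past an adjusted p of 0.01 by limma on z-scores. The share of all genes that passed in the same direction in all 5 subclones was not counted. Fasn stayed near its low WT5 level, at 51.3 to 60.9 TPM against 51.9, and no subclone approached the polyclonal 147. Srebf2 was intermediate, with means of 77.7 to 97.4 TPM between the polyclonal 42.0 and the 119 of WT5. The 5 comparisons share the same 4 WT5 libraries, so what they have in common is not independent evidence.

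By adjusted p alone, 15, 13, 12, 17 and 10 of 33 genes passed in subclones 1 to 5, against 26.3%, 26%, 19.5%, 37.3% and 21.9% of the 13860 genes tested. They were 7, 5, 3, 6 and 1 higher, against 12.7%, 13.4%, 8.65%, 18.2% and 10.2% of all genes, and 8, 8, 9, 11 and 9 lower, against 13.6%, 12.6%, 10.9%, 19.2% and 11.7%. On log2(TPM) without z-scores the split moved further down, to 2, 1, 1, 4 and 0 higher and 10, 9, 12, 14 and 10 lower, against 9.23%, 7.29%, 4.65%, 13.4% and 4.68% of all genes higher and 16.4%, 13.8%, 11.8%, 23.6% and 11.6% lower. The study's rule called 0 genes in each subclone, against 0.152%, 0.144%, 0.173%, 0.202% and 0.173% of all genes. The 2-fold rule called 0, 2, 0, 2 and 1 genes in subclones 1 to 5, against 3.17%, 2.69%, 3.61%, 5.14% and 3.45%, all of them Scd1 or Insig2 and all lower. Of all genes, 1.75%, 1.58%, 1.9%, 2.27% and 1.98% were called as lower by that rule and 1.42%, 1.11%, 1.71%, 2.87% and 1.46% as higher, a direction in which it called 0 of the 33. With the library medians subtracted it called 0, 2, 0, 1 and 0 genes, against 3.12%, 2.68%, 3.97%, 5.32% and 3.67%. The libraries of WT5 and the subclone did not overlap for 19, 19, 19, 19 and 23 of the 33 genes, against 42.1%, 39.5%, 37.4%, 50.5% and 38.4% of all genes.

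**Figure D3:**
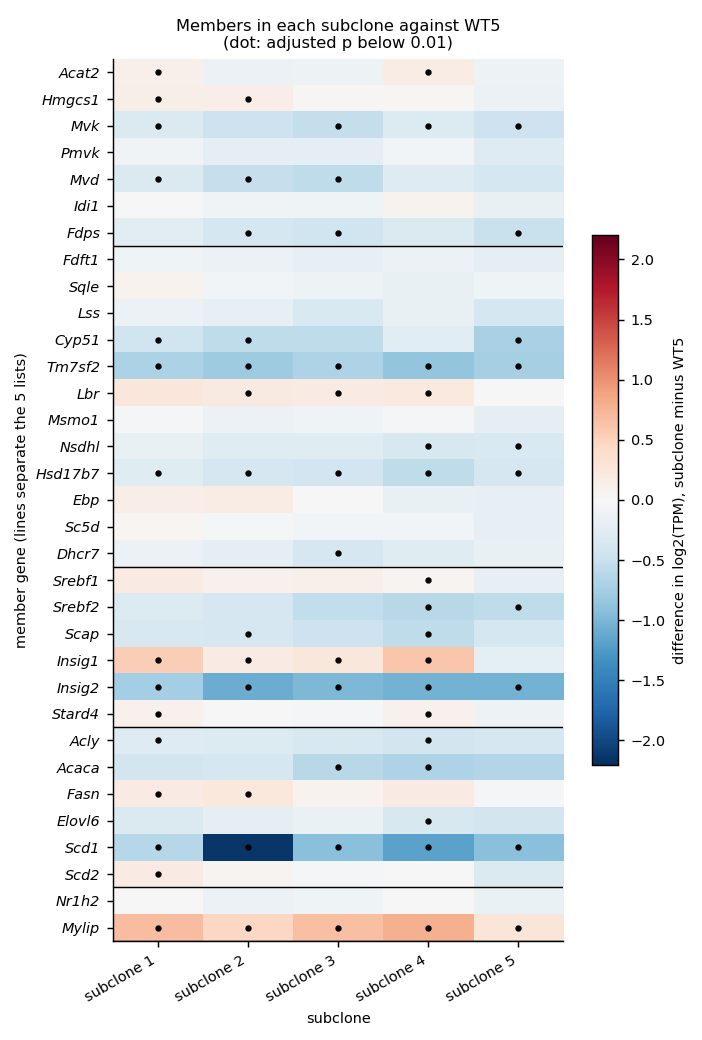
Difference in log2(TPM), subclone minus WT5, for 33 genes (rows, separated by list) and 5 subclones (columns; n = 4 libraries a group), with a dot where the adjusted p of the z-score fit was below 0.01. Scd1, Insig2, Tm7sf2 and Hsd17b7 are lower and Mylip higher in every column, and Scd1 in subclone 2 is the largest difference at -2.13.

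Scd1 had the largest log2 difference of the 33 genes in subclones 2 and 4, and Insig2 in subclones 1, 3 and 5. For Scd1, WT5 libraries held 7.92 to 9.08 TPM. Subclone 1 had 6.38, 5.19, 5.36 and 5.21 TPM, subclone 2 had 2.48, 1.43, 1.74 and 2.27, subclone 3 had 4.68, 4.04, 4.42 and 4.80, subclone 4 had 3.42, 4.19, 4.20 and 3.33, and subclone 5 had 3.65, 4.67, 4.40 and 5.34. None of the 20 subclone libraries reached the lowest WT5 library. The log2 differences were -0.62 ± 0.08, -2.13 ± 0.168, -0.92 ± 0.076, -1.17 ± 0.095 and -0.92 ± 0.116 (SE) in subclones 1 to 5, with limma adjusted p between 6.17e-05 and 0.00108. By the unequal-variance test Scd1 in subclone 2 did not pass under the 2-fold rule, which left 1 call there. The share of Scd1 in the sum of both desaturases fell to 0.700% ± 0.0926 (SD, n = 4) in subclone 2 and 1.40% to 2.07% in the others.

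Insig2 was at 78.4 to 99.8 TPM in WT5. It had 52.0, 52.55, 49.4 and 52.3 TPM in subclone 1, 37.6, 41.0, 37.5 and 45.25 in subclone 2, 42.6, 42.05, 55.5 and 35.2 in subclone 3, 44.7, 40.7, 40.2 and 41.6 in subclone 4, and 43.1, 34.2, 41.9 and 48.9 in subclone 5. All 20 values lay below the lowest WT5 library, and 4 of the 5 subclone means lay within 2 TPM of the polyclonal mean of 42.0. The log2 differences from WT5 were -0.74 ± 0.081, -1.10 ± 0.098, -0.99 ± 0.146, -1.04 ± 0.084 and -1.05 ± 0.126 (SE), so the 2-fold limit ran through them. In subclone 3 Insig2 was called without WT5 replicate 3, WT5 replicate 4 or subclone 3 replicate 3, which gives 1 call in place of 0. In subclone 4 it was not called without WT5 replicate 1, which leaves 1 call, and in subclone 5 not without WT5 replicate 1 or subclone 5 replicate 2, which leaves 0, while Scd1 joined it without subclone 5 replicate 4, which gives 2. With the library medians subtracted, subclone 4 kept 1 call (Scd1) and subclone 5 none.

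Tm7sf2 stood at 28.1 to 31.8 TPM in WT5 and at 13.2 to 21.5 TPM in the 20 subclone libraries, with log2 differences between -0.87 and -0.68. Its subclone means of 16.7 to 18.9 TPM bracket the polyclonal 18.7. Hsd17b7 fell by less, with log2 differences between -0.55 and -0.27. Mvk passed as lower in 4 subclones, and Mvd, Fdps and Cyp51 in 3 each. Not all of these calls were firm at an adjusted p of 0.01 when 1 library was left out. Any single WT5 library ended those of Hsd17b7 in subclones 2, 3 and 5, of Insig2 in subclone 3 and of Mylip in subclone 5, and WT5 replicate 1, 2 or 4 that of Tm7sf2 in subclone 5. Single subclone libraries also ended them: replicates 3 and 4 of subclone 2 and replicate 3 of subclone 5 for Hsd17b7, replicates 1 and 2 of subclone 3 for Insig2, and replicates 2 and 3 of subclone 5 for Mylip. The highest limma adjusted p among these was 0.0194, and no direction turned. Fdps in subclone 3 lost its call without any of the 8. Mvk in subclone 3 lost its call in 3 of 8 fits without 1 library, and Mvd in subclone 2 in 2 of 8. The limma adjusted p rose to 0.0121 for Mvk and 0.0106 for Mvd. The calls in subclone 3 were the least firm by count: of 12 genes that passed, 8 lost an adjusted p below 0.01 when some single library was left out, against 2 of 17 in subclone 4.

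Of the genes that were higher, Mylip had 8.33, 9.27, 9.01 and 8.54 TPM in WT5. Its values were 13.5, 15.3, 12.6 and 14.7 TPM in subclone 1, 12.3, 11.3, 12.5 and 12.2 in subclone 2, 14.6, 13.7, 12.75 and 14.9 in subclone 3, 14.5, 15.4, 15.1 and 15.4 in subclone 4, and 9.06, 11.7, 11.6 and 10.2 in subclone 5. Only subclone 5 overlapped with WT5, and there the log2 difference of 0.27 ± 0.093 (SE) did not pass without z-scores (limma adjusted p = 0.0585). Insig1 passed as higher in subclones 1 to 4, with log2 differences of 0.53 ± 0.059, 0.18 ± 0.059, 0.25 ± 0.065 and 0.61 ± 0.051 (SE), of which those of subclones 2 and 3 did not pass without z-scores (limma adjusted p = 0.0444 and 0.022). On the z-score scale, Insig1 also lost its call without any of 7 single libraries in subclone 2 (all but WT5 replicate 1) and any of 5 in subclone 3 (WT5 replicates 2 to 4 and subclone 3 replicates 1 and 4). In the same 4 subclones Insig2 was lower, so the ratio of Insig2 to Insig1 went from 1.28 ± 0.117 (SD, n = 4) in WT5 to between 0.407 and 0.552. Fasn passed as slightly higher in subclones 1 and 2 by z-score only, with log2 differences of 0.18 and 0.22. Both calls were lost without any of 7 of the 8 single libraries (all but WT5 replicate 1 for subclone 1, and all but subclone 2 replicate 1 for subclone 2), with limma adjusted p of up to 0.0211 and 0.0257. Of the remaining genes, 9 passed in no subclone: Ebp, Fdft1, Idi1, Lss, Msmo1, Nr1h2, Pmvk, Sc5d and Sqle. How many of all genes passed in no subclone was not counted either.

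WT5 thus stood at one end for many genes. Of the 33 genes, 10 had all 4 WT5 libraries above the other 24 libraries (Acaca, Acly, Cyp51, Hsd17b7, Insig2, Mvd, Mvk, Scap, Srebf2 and Tm7sf2), against 9.67% of the 13272 genes above 0 in every library. Another 6 had all polyclonal libraries above the other 24 (Acat2, Ebp, Elovl6, Fasn, Pmvk and Scd1), against 16%, and 5 had them all below (Lbr, Lss, Nr1h2, Srebf2 and Stard4), against 29.1%. Of the 6 epithelial markers, 5 also had their highest group mean in WT5 (Epcam, Krt8, Krt18, Krt19 and Cldn7), with Krt8 at 1005 ± 38.7 TPM (SD, n = 4) against 359.9 ± 25.8 in polyclonal cells and 495 to 620.4 in the subclones, while Cdh1 was highest in polyclonal cells. Whether this bears on the lipid genes was not tested.

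The third comparison asks how much sister subclones differ from one another, and rests on the 20 subclone libraries alone. Insig1, Scd1 and Mylip separated the subclones most clearly. In all, 8 of 34 genes tested passed the limma F test at an adjusted p of 0.01, against 24.6% of 14031 genes: Insig1, Scd1, Mylip, Hmgcs1, Acat2, Cyp51, Fdps and Ebp. The study's rule called 0, against 0.613%, and the widest range of z-score means was 0.745, that of Nr1h3, a gene below 1 TPM in every library. The 2-fold rule called 1, Scd1, against 5.4%. The Kruskal-Wallis test left 0 past an adjusted p of 0.01, and gave these 8 genes adjusted p between 0.055 and 0.0659. As a test of ranks on 4 libraries a group, it has a lowest possible p, which adjustment over 14031 genes raises. The loss of these calls therefore says little about the genes.

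Insig1 had 96.6, 101, 89.8 and 102 TPM in subclone 1, 81.85, 72.9, 73.9 and 76.6 in subclone 2, 80.3, 82.4, 74.5 and 83.3 in subclone 3, 97.9, 104, 103 and 106 in subclone 4, and 54.0, 59.4, 61.8 and 57.85 in subclone 5. Subclones 1 and 4 were high, 2 and 3 in the middle and 5 low, with no overlap between these levels. Of the 10 pairs, 8 passed with p adjusted over all genes and pairs, while subclones 1 and 4 and subclones 2 and 3 did not differ at that limit. The widest pair, subclone 5 minus subclone 4, differed by -0.82 ± 0.059 on the log2 scale (SE; limma adjusted p = 4.03e-09), a 1.76-fold span of means.

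**Figure D4:**
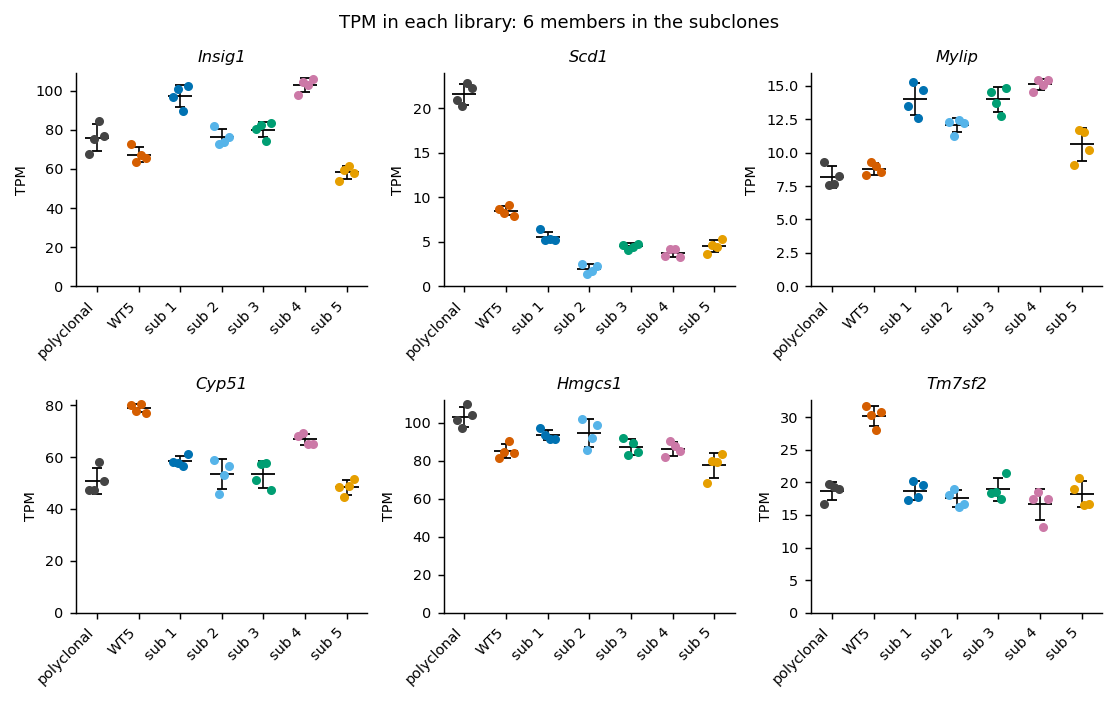
TPM of 6 genes in each of the 28 libraries, by group (points, libraries; horizontal line and bars, mean and SD of 4). Insig1 lies at 89.8 TPM or above in subclones 1 and 4 and at 61.8 TPM or below in subclone 5, and Scd1 is lowest in subclone 2.

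Scd1 spanned a 2.80-fold range of subclone means. Subclone 2 was below the other 4 in every library, and it differed from each of them, by log2 differences of 0.96 to 1.51 in size (limma adjusted p between 4.72e-07 and 0.000105), while subclone 4 also lay below subclone 1. Mylip, whose values are given above, was lowest in subclone 5, and 3 of its 4 passing pairs involve that subclone. For Scd1, leaving out any 1 library kept the call.

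The other genes that passed had narrower ranges of subclone means, the widest being that of Cyp51 (0.47 on the log2 scale). Cyp51 had 58.3, 57.55, 56.6 and 61.3 TPM in subclone 1, 58.8, 45.65, 52.9 and 56.7 in subclone 2, 51.1, 57.5, 57.8 and 47.2 in subclone 3, 68.1, 69.1, 65.1 and 65.25 in subclone 4, and 48.45, 44.6, 48.9 and 51.6 in subclone 5. Subclone 4 was above all other subclone libraries. Acat2 had 61.8, 61.2, 61.0 and 61.3 TPM in subclone 1, 55.8, 43.7, 52.8 and 56.7 in subclone 2, 51.9, 54.8, 54.4 and 50.7 in subclone 3, 63.4, 65.55, 64.1 and 62.6 in subclone 4, and 49.8, 50.7, 54.1 and 56.1 in subclone 5. Subclones 1 and 4 were again the higher ones, without overlap with the rest.

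Hmgcs1 had 97.1, 93.8, 91.4 and 91.6 TPM in subclone 1, 102, 85.7, 92.2 and 99.1 in subclone 2, 91.8, 83.0, 89.35 and 84.6 in subclone 3, 82.0, 90.6, 87.9 and 85.3 in subclone 4, and 68.2, 79.75, 79.4 and 83.55 in subclone 5. Subclone 5 was the lowest by its mean and overlapped with subclones 3 and 4. Fdps had 332, 319.6, 320.4 and 302 TPM in subclone 1, 306, 262, 289.7 and 292 in subclone 2, 280.1, 269, 289.7 and 273 in subclone 3, 298, 304, 300.3 and 298 in subclone 4, and 239, 262, 275 and 294 in subclone 5. Ebp had 43.3, 42.65, 36.4 and 38.4 TPM in subclone 1, 37.7, 37.8, 41.4 and 45.9 in subclone 2, 38.7, 32.5, 38.1 and 35.55 in subclone 3, 29.3, 35.3, 35.6 and 29.9 in subclone 4, and 29.4, 32.3, 30.1 and 36.2 in subclone 5. Fdps and Ebp rested on narrow margins: Fdps lost its call without any of 11 single libraries and Ebp without any of 13, Cyp51 without 6 and Acat2 without 3 of the 20. These are each of the 4 libraries of subclone 4 for Cyp51 and replicates 2 and 3 of subclone 5, and replicates 1 to 3 of subclone 4 for Acat2.

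The next in order missed the limit. Elovl6 (limma adjusted p = 0.0102) had 11.3, 10.8, 9.31 and 10.3 TPM in subclone 1, 12.5, 10.65, 10.3 and 11.6 in subclone 2, 12.6, 10.8, 11.1 and 12.5 in subclone 3, 9.95, 9.98, 10.4 and 10.1 in subclone 4, and 8.71, 9.77, 9.36 and 11.25 in subclone 5. Scd2 (limma adjusted p = 0.013) had 319, 295, 274 and 306 TPM in subclone 1, 323, 240.2, 264 and 285 in subclone 2, 298, 221, 244 and 278 in subclone 3, 234, 288, 273 and 269 in subclone 4, and 170.2, 223, 219 and 242 in subclone 5. In both genes subclone 5 had the lowest mean and overlapped with other subclones.

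By pairs, 27 of 340 tests (34 genes in 10 pairs) passed, or 7.94%, against 9.48% of the tests of all genes. Subclone 5 against subclone 4 and against subclone 1 gave 5 genes each, all lower in subclone 5: Insig1, Mylip and Fdps in both, with Cyp51 and Acat2 against subclone 4, and Scd2 and Hmgcs1 against subclone 1. Of all genes, 17.4% passed between subclones 5 and 4, and 9.14% between 5 and 1. Between subclones 3 and 1, and between 3 and 2, 1 gene passed each, Insig1 and Scd1 respectively. There 4.45% and 4.8% of all genes passed. Subclone 5 also had the lowest sum over all 36 genes, at 1828 ± 141 TPM (SD, n = 4), and subclone 1 the highest, at 2202 ± 83.0. The coefficient of variation within a group had a median of 9.57% over the 33 genes in subclone 5, 8.96% in subclone 2 and 4.31% in subclone 4, where the medians of all genes were 12.1%, 7.98% and 6.98%.

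Of the 37 further pathway genes tested, 13 (35.1%) passed among the subclones, against 24.6% of all genes, and none passed the 2-fold rule, against 5.4%. Against WT5, 6, 5, 5, 13 and 5 of them passed in subclones 1 to 5 (16.2%, 13.5%, 13.5%, 35.1% and 13.5%), below the 26.3%, 26%, 19.5%, 37.3% and 21.9% of all genes, again with none at 2-fold. The median range of subclone means on the log2 scale was 0.26 for the 34 genes, 0.23 for the 37 and 0.29 for all genes tested.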

How the data were processed

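RNA-seq of 28 mIMCD-3 libraries (4 for each of 7 lines) was deposited by the authors as TPM in 2 tables, made, per their methods and notes, with CASAVA 1.8, STAR 2.7.3a and RSEM 1.3.1 on GRCm38 with Ensembl release 81. Whether counting used strand is not given in the sources used here, and TPM keep no read depth, so no counting interval was set. Groups came from the sample labels. For genes above 0 in every library compared, log2(TPM) was taken without adding a pseudocount, and z-scores were formed over the genes of a library, after the study. Both scales were fitted across all genes with limma 3.58.1 (R 4.3.3), with Benjamini-Hochberg adjustment: WT5 against polyclonal cells, each subclone against WT5, and an F test with 10 pairs among the subclones. Python 3.11.15, pandas 2.3.3, numpy 2.4.6, scipy 1.17.1 and matplotlib 3.10.9 did the rest. The study's rule asked for an adjusted p below 0.01 and a z-score difference above 1, and the 2-fold rule for an adjusted p below 0.01 and a log2 difference above 1. Values in every library were given for genes called by either rule and for the 10 with the smallest adjusted p among the subclones; other genes were given by ranges, counts and examples, and of the further pathway genes the 3 with the largest z-score difference that passed the 2-fold rule were named. For every subclone comparison with WT5, a gene had to exceed 0 in each of these 24 libraries. Shared sequence was counted in 50-base stretches of transcripts. Symbols and marker sets were matched to GENCODE M21 names. The members and lists were chosen with earlier results of these data known. Fits were tested on simulated data. Some genes of these pathways are not reported here.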

Additional observations from a re-analysis of the deposited data

Results flagged for a closer look

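In 98 groups of 4 libraries (14 genes in 7 lines), 5 had 1 library far from the other 3, and chance gives about 1 in 20. Scd1 had 6.38 TPM in subclone 1 replicate 1, against 5.19 to 5.36 in the others. Insig2 had 49.4 TPM in subclone 1 replicate 3, against 52.04 to 52.55. WT5 replicate 3 was high for Srebf2 (126.98 TPM, against 115.79 to 117.16), for Elovl6 (14.82, against 12.12 to 12.55) and for Scd2 (286.56, against 256.39 to 259.78).

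In several pairs of subclones the differences from WT5 went in opposite directions and the pair also passed the limma test, with p adjusted over genes and pairs. For Insig1, subclone 5 was below subclones 1, 2, 3 and 4, with log2 differences of -0.74, -0.39, -0.46 and -0.82. For Hmgcs1, subclone 5 was below subclone 1 by a log2 difference of -0.27 and below subclone 2 by -0.29. For Acat2, subclone 4 was above subclones 2 and 3 by 0.30 and 0.27, and subclone 5 minus subclone 4 was -0.28. For Scd2, subclone 5 minus subclone 1 was -0.49. Their causes were not tested.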

How the results depend on the processing

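Leaving out 1 library gave 888 values for single genes, of which 682 kept direction and side of the threshold, 206 lost the call and 0 reversed, and the other settings gave 1006, of which 833 were kept, 169 lost and 4 reversed. All 4 reversals came from TPM summed over genes that share a stretch: for WT5 minus polyclonal, the z-score difference became -0.089 for Tm7sf2, 0.0127 for Scd1, 0.0483 for Elovl6 and 0.0366 for Hmgcs1, and the 2-fold rule then called 3 genes. Applied to log2 values without z-scores, the study's rule called 5 genes in WT5 minus polyclonal, 0, 2, 0, 2 and 1 in subclones 1 to 5 and 1 among the subclones; with medians subtracted it called 4, then 0, 2, 0, 1 and 0, then 1, and so did the 2-fold rule in subclones 4 (1) and 5 (0). With no threshold on the size, the study's rule gave 24, then 15, 13, 12, 17 and 10, then 8, and the 2-fold rule 25, then 12, 10, 13, 18 and 10, then 6. The 2-fold rule called 1 in subclone 2 by the unequal-variance test, 1 in subclone 4 with a pseudocount of 1, and 0 among the subclones by Kruskal-Wallis, a rank test with a lowest possible p. Without 1 library its counts ran from 4 to 5 in WT5 minus polyclonal, 0 to 1 in subclone 3, 1 to 2 in subclone 4 and 0 to 2 in subclone 5, and stayed at 0, 2 and 1 in subclone 1, subclone 2 and among the subclones; the study's rule stayed at 0. Causes were not tested unless the setting itself removes libraries or the size limit.

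Replicate numbers are shared between lines, but libraries with the same number did not deviate together in every pair of any comparison. Among the subclones, correlations of same-number pairs ran from -0.265 to 0.129, and those of other pairs from -0.171 to 0.248. This does not exclude a partial pairing. With the replicate block the 2-fold rule called 5, then 0, 2, 0, 2 and 1, then 1 genes, the study's rule 0 throughout, and 46 of 99 single-gene calls were lost. Depth is unknown from TPM, so the precision of low genes such as Nr1h3 cannot be set.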
